A study of Xenopus laevis with 6 samples.

Results

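The Hox cluster genes were examined in an expression profile of the early gastrula of the frog Xenopus laevis. Members were the probe sets whose single gene symbol in the platform annotation, without the suffix L or S, is hoxa, hoxb, hoxc or hoxd followed by a number from 1 to 13. The rule found 38 of 32539 probe sets that are not Affymetrix controls, and all 38 fall in paralogue groups 2 to 13. They measure 25 of 11303 named gene copies, and belong to 23 genes. A gene copy here is 1 symbol with its suffix, which marks the L or S subgenome of this allotetraploid species. The symbols hoxb9 and hoxd9 carry no suffix in the annotation, and each was counted as 1 copy.

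The series has 6 samples of whole embryos at stage 10.5. The labels give 3 samples injected with an Ext1 morpholino (Ext1 MO), an antisense oligonucleotide against the heparan sulfate polymerase Exostosin 1, and 3 injected with a mispaired control morpholino (Mispair MO). Both groups received 20 ng at the 2-cell stage, and each sample was made from 5 pooled embryos. No strain or transgene is given in the labels. RNA was hybridised to the Affymetrix Xenopus laevis array, version 2.0, and the table holds MAS5 signals, a linear intensity for each probe set. All 6 columns were the same profile times a constant: 30 of 30 ordered pairs of columns were proportional within the rounding of the values, with 0 of 32635 probe sets outside. The constants between columns ran from 0.9663 to 1.0349. The columns therefore give no comparison of the Ext1 MO and Mispair MO embryos. The mean of the 6 columns is used below as 1 profile (n = 1), with no error and assigned to neither group.

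Hox genes encode homeodomain transcription factors that lie in clusters, and they give cells their position along the head to tail axis. The order of the genes in a cluster matches the order in which they are switched on and the order of their domains along the axis, a property called collinearity. Genes of low paralogue group number are switched on first, with anterior limits in the hindbrain, and those of high group number follow in the trunk and tail. In Xenopus, transcription of the earliest Hox genes begins during gastrulation in the marginal zone outside the organizer, so stage 10.5 lies at the start of the sequence.

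Hox genes gave little signal in this profile. A gene copy was counted as detected when its brightest probe set exceeded the highest of the 17 Tag controls, probe sets for artificial sequences, which was at 24.4. By this floor 3 of 25 Hox copies were detected (12%): hoxc5.L, hoxa7.L and hoxd13.S. Over the whole array, 80.4% of named gene copies exceeded it. Of the 38 Hox probe sets 3 passed it, against 72% of all probe sets that are not controls. The median signal of the Hox copies at their brightest probe set was 12.7, against 358 for all named copies. In whole embryos, a low signal from few cells and less RNA per cell cannot be told apart.

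**Figure D1:**
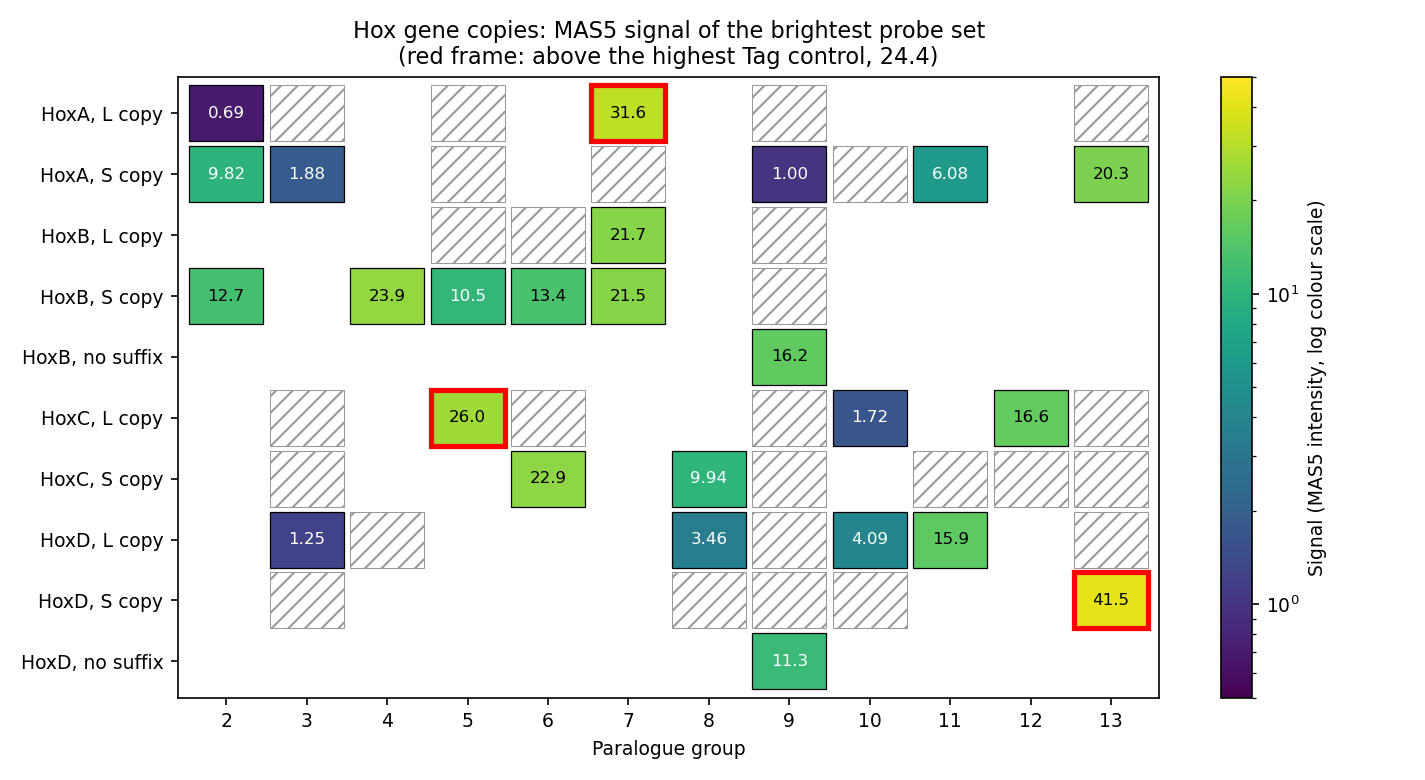
Signal of the brightest probe set of each Hox gene copy (MAS5 intensity, logarithmic colour scale), with paralogue groups 2 to 13 across and the L and S copies of each cluster down. A red frame marks the 3 copies above the highest Tag control (24.4), and hatched boxes are copies in the RefSeq gene list that have no probe set by gene ID.

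Marker genes of the gastrula and of later tissues were counted at the same floor. All 16 measured copies of the gastrula markers exceeded it, led by sox3.S at 12260, the vegetal T-box gene vegt.S at 10638 and sox3.L at 9789. This cannot settle the stage, since 80.4% of all named copies exceeded the floor. The count also does not separate RNA made at this stage from RNA stored in the egg. Of 20 copies of genes of later tissues (globins, lens crystallins, muscle, nerve and pancreas genes), 1 exceeded the floor, the muscle creatine kinase gene ckm.L at 104. The median of the Hox copies was 12.7, against 11.5 for these late markers, and 12% of Hox copies stood above the floor, against 5% of the late markers.

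The coverage of the clusters limits what can be said of collinearity. In paralogue groups 2 to 13 the RefSeq gene list holds 50 gene copies with a Hox symbol. Of these, 23 have a probe set by gene ID and 27 have none. RefSeq also places genes without such a symbol inside the clusters. Whether any of them is a Hox gene was not tested, and they are not among the 50. The gene IDs of hoxb9 and hoxd9 are not in that list. The L and S copies of both genes therefore count among the 27, although the annotation names 3 probe sets hoxb9 and 2 hoxd9. Of the copies with a Hox symbol, group 2 has all 3 measured, and group 3 has 2 of 6. A further 16765 probe sets of the array are unnamed here, and any of them could belong to a Hox gene.

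Among the anterior paralogue groups, 0 of 6 measured copies in groups 2 to 4 exceeded the floor. These genes pattern the hindbrain and the pharyngeal arches. The copies of hoxa2, which specifies the identity of the second pharyngeal arch, were at 0.69 for hoxa2.L and 9.82 for hoxa2.S. The hindbrain gene hoxb2.S was at 12.7. In group 3, which acts in the pharyngeal arches and the posterior hindbrain, hoxa3.S was at 1.88 and hoxd3.L at 1.25. The single copy of group 4, hoxb4.S, a gene of the posterior hindbrain and neck, was at 23.9, which is 0.979 of the floor and the nearest of all Hox copies below it. Its values were 23.48, 24.30 and 24.24 in the columns Ext1 MO 1, 2 and 3, and 23.73, 23.52 and 24.18 in the columns Mispair MO 1, 2 and 3. In each column it lay just under the highest Tag control of that column, as proportional columns must give, so the 6 values are 1 reading.

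In the middle groups 5 to 8, which pattern the neck and trunk, 2 of 9 copies exceeded the floor. The first was hoxc5.L, through the probe set Xl2.53735.1.A1_at, which read 25.55, 26.45 and 26.38 in the columns Ext1 MO 1, 2 and 3. In the columns Mispair MO 1, 2 and 3 it read 25.83, 25.60 and 26.31. These are the same profile value scaled by the column constants, 26.0 on average, or 1.07 times the floor. The other 2 probe sets of hoxc5.L were at 4.12 and 2.25, so its probe sets fell on both sides of the floor.

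The second was the trunk gene hoxa7.L, measured by 1 probe set, Xl2.12130.1.S1_at. It read 31.02, 32.10 and 32.02 in the columns Ext1 MO 1, 2 and 3, and 31.35, 31.07 and 31.94 in the columns Mispair MO 1, 2 and 3. The mean of 31.6 was 1.29 times the floor. The remaining copies of these groups did not reach it. The copies of hoxb7, a trunk gene, were close to the floor at 21.7 for hoxb7.L and 21.5 for hoxb7.S. The marker of the anterior trunk hoxc6.S had 4 probe sets, of which the brightest was at 22.9 and the dimmest at 6.67. Lower signals were read for hoxb5.S (10.5), hoxb6.S (13.4), hoxc8.S (9.94) and hoxd8.L (3.46).

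In the posterior groups 9 to 13, which act in the posterior trunk, the tail and the limbs, 1 of 10 copies exceeded the floor. This was hoxd13.S, a gene of the last paralogue group that is known for its role in the digits, the genital tract and the hindgut. Its single probe set, Xl2.21863.1.S1_at, read 40.75, 42.18 and 42.07 in the columns Ext1 MO 1, 2 and 3. In the columns Mispair MO 1, 2 and 3 it read 41.19, 40.82 and 41.96. Its mean of 41.5 was 1.70 times the floor, and 36.1% of all probe sets that are not controls lay below it. The other measured copy of group 13, hoxa13.S, was at 20.3 and did not exceed the floor.

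The rest of the posterior copies were below the floor as well. The spinal cord marker hoxb9 had 3 probe sets between 4.83 and 16.2, and hoxd9 had 2, at 2.65 and 11.3. The third copy of group 9, hoxa9.S, was at 1.00. In group 10, hoxc10.L was at 1.72 and hoxd10.L at 4.09. The limb genes of group 11 were at 15.9 for hoxd11.L and 6.08 for hoxa11.S, and hoxc12.L of group 12, a gene of the tail, was at 16.6. The RefSeq gene order places the gene ID of hoxa11.S on the L subgenome, directly before hoxa13.L, so the suffix of this copy is uncertain.

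**Figure D2:**
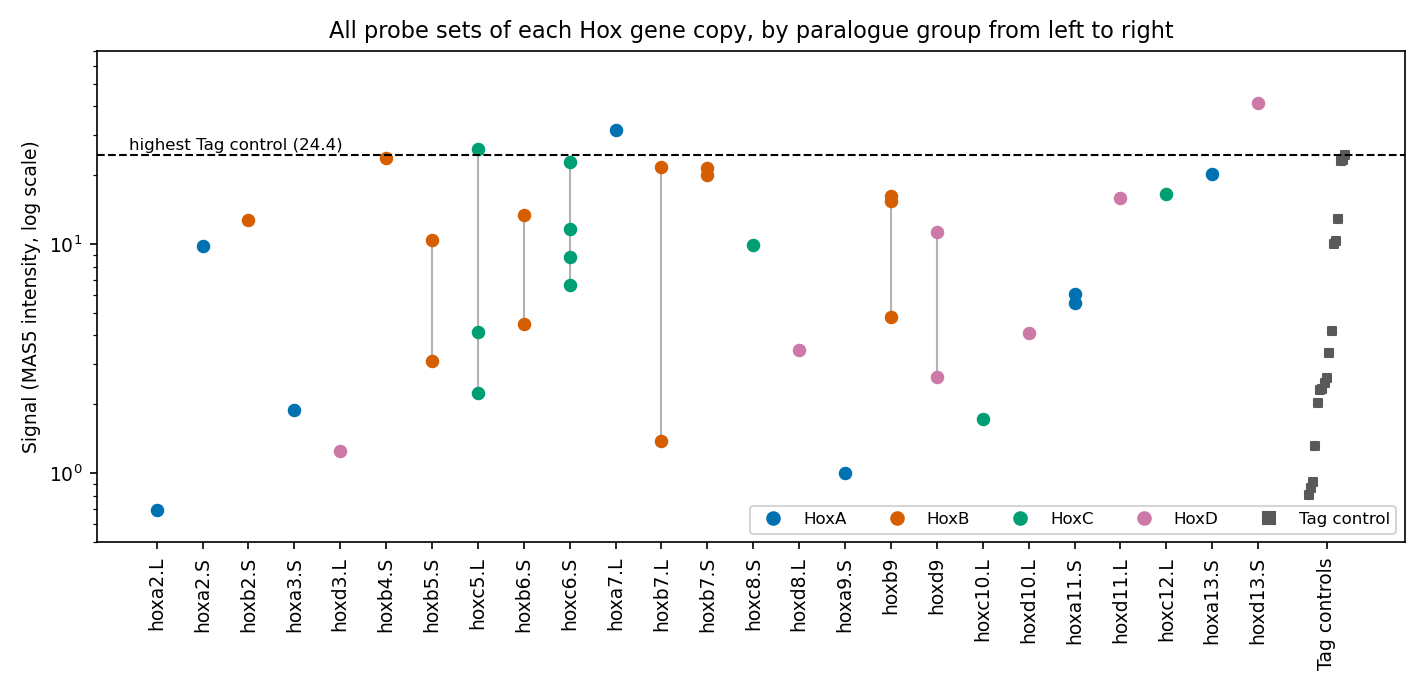
Signal of all 38 Hox probe sets (MAS5 intensity, logarithmic axis), with gene copies ordered by paralogue group and coloured by cluster, vertical lines joining the probe sets of 1 copy, and grey squares for the 17 Tag controls. Only 3 probe sets, of hoxc5.L, hoxa7.L and hoxd13.S, lie above the dashed line at the highest Tag control, and the probe sets of hoxc5.L lie on both sides of it.

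By cluster, the copies above the floor numbered 1 of 7 in HoxA, 0 of 7 in HoxB, 1 of 5 in HoxC and 1 of 6 in HoxD. The 3 detected copies thus came from 3 clusters and from paralogue groups 5, 7 and 13, while groups 2, 3, 4, 6, 8, 9, 10, 11 and 12 had 0 copies above the floor. The longest stretch of adjacent genes with probe sets was on the S subgenome in HoxB. There hoxb4.S, hoxb5.S, hoxb6.S and hoxb7.S lie side by side in the RefSeq order, and all 4 were below the floor. By suffix, 2 of 10 L copies and 1 of 13 S copies were above it. By symbol, only hoxa2 and hoxb7 had both copies measured, and neither copy of either gene exceeded the floor. Without probe sequences, cross-hybridisation between the L and S copies was not tested.

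Of 16 copies with 1 probe set 2 exceeded the floor, and of 9 copies with several probe sets 1 did. These counts are too small to set against each other. A pair of HoxC probe sets fell outside the rule: the symbol xhoxc8, with a letter before the Hox name, was at 1.36, and a probe set shared by hoxc8.S and xhoxc8 was at 5.81. Both were below the floor. The RefSeq gene order places the gene xhoxc8 within the HoxC cluster of the L subgenome. It was not counted as an L copy of hoxc8.

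The background differs between probe sets, so a common floor is approximate. The Tag controls ran from 0.805 to 24.4 with a median of 2.62, and 20 of 25 Hox copies were above that median, against 95.6% of all named copies. At 2 times the highest Tag control (48.8), 0 of 25 Hox copies remained, while 74.1% of all named copies still exceeded it. The Hox copies, from 0.69 to 41.5, thus ran from just below the lowest Tag control to a little above the highest.

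**Figure D3:**
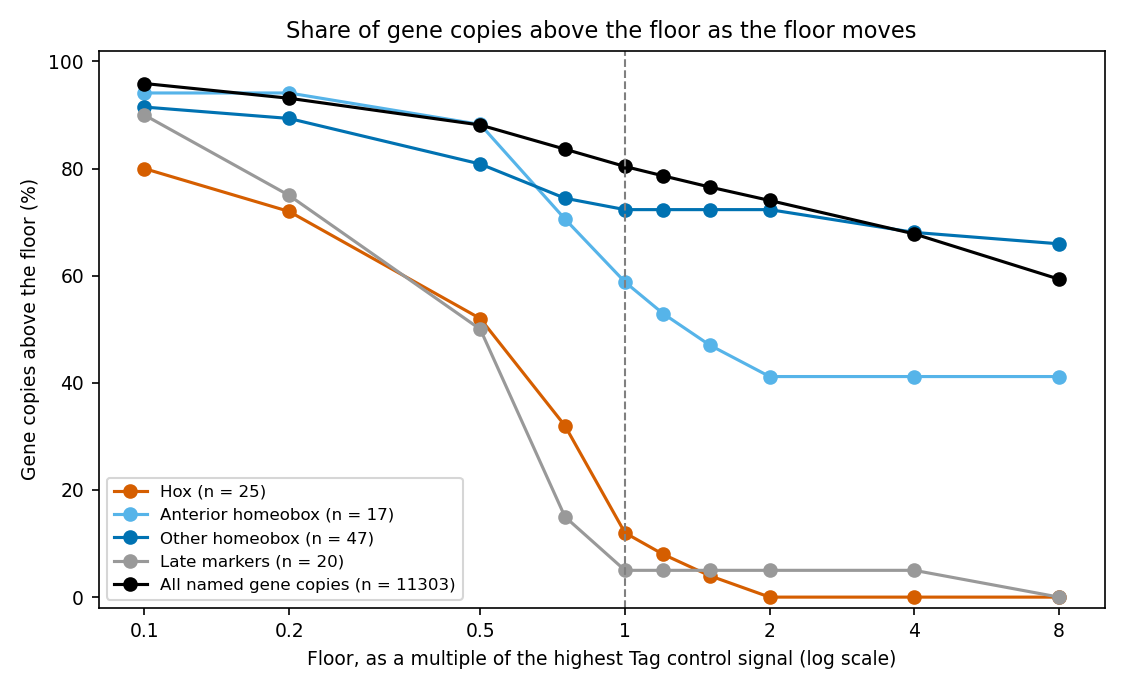
Percentage of gene copies above the floor (vertical axis) as the floor moves from 0.1 to 8 times the highest Tag control (horizontal axis, logarithmic), for the Hox copies, anterior and other homeobox genes, late markers and all named gene copies. The Hox line falls to 12% at the floor and 0% at 2 times the floor, where all named copies are at 74.1%.

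Other homeobox genes were counted for comparison, from lists of genes that are not in the Hox clusters. The larger list mixes homeobox genes of the early embryo with genes of later organs and nerve cells, and these kinds were not counted apart. Of its 47 copies 34 exceeded the floor, and 34 still did at 2 times the floor. The 13 below the floor included nkx2-1.L, nkx2-5.S, isl1.S and tlx3.S of the later kind and the early gene sia2.S. The highest signals of this larger list were those of pou5f3.2.L, a pluripotency factor related to mammalian Oct4, at 18816, of the ventral gene ventx2.1.L at 5061 and of the mesendoderm gene mixer.S at 3754. Among homeobox genes of the head and anterior neural plate, 10 of 17 copies exceeded the floor and 7 did at 2 times the floor. This list was led by otx2.L at 2102 and otx1.L at 1858, genes of the forebrain and midbrain, and by irx2.L at 940, a gene of the neural plate. The 7 copies above 2 times the floor were all otx or irx genes. All measured copies of hesx1, rax, six3, six6, emx1 and emx2 lay lower, from 1.69 for emx1.S to 45.7 for hesx1.L. Low signal was thus not particular to the Hox genes. By count, Hox genes had the smallest share above the floor of these 3 homeobox sets, 12% against 58.8% for the anterior and 72.3% for the other homeobox genes. All 3 shares lay below the 80.4% of all named copies at the floor, and at 2 times the floor that share was 74.1%. These shares describe 1 profile and were not tested.

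Genes known to act upstream of the Hox clusters were counted at the same floor. The Cdx genes encode homeodomain factors that activate posterior Hox genes, and all 3 measured copies exceeded the floor: cdx1.S at 1399, cdx4.L at 1042 and cdx2.L at 625. Retinoic acid induces anterior Hox genes, and 14 of 17 copies of genes for its synthesis, breakdown, binding and receptors exceeded the floor. The highest were the receptor gene rarg.S at 5593, the retinol dehydrogenase gene rdh10.L at 2408 and the retinaldehyde dehydrogenase gene aldh1a2.L at 2123. The 3 below the floor, named after their values were seen, were aldh1a3.L at 17.7, cyp26c1.S at 17.6 and aldh1a1.S at 3.35. With 80.4% of all named copies above the floor, the retinoic acid share of 82.4% is close to the background.

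Hox proteins bind DNA together with cofactors of the Pbx, Meis and Pknox families. Of 6 measured cofactor copies 5 exceeded the floor (83.3%), a share near the 80.4% of all named copies. They were pbx2.L at 1689, meis3.S at 326, pknox1.L at 180, meis3.L at 109 and meis1.S at 44.0, while meis2.L was at 8.82. The Polycomb and Trithorax groups of chromatin regulators keep Hox genes off or on, and 20 of 20 measured copies of both groups exceeded the floor. The highest were ezh2.L at 6583 and suz12 at 3154, subunits of the Polycomb complex that methylates histone H3, and wdr5.S at 2532, a subunit of Trithorax-type methyltransferase complexes. These counts were not tested against the share of all named copies.

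**Figure D4:**
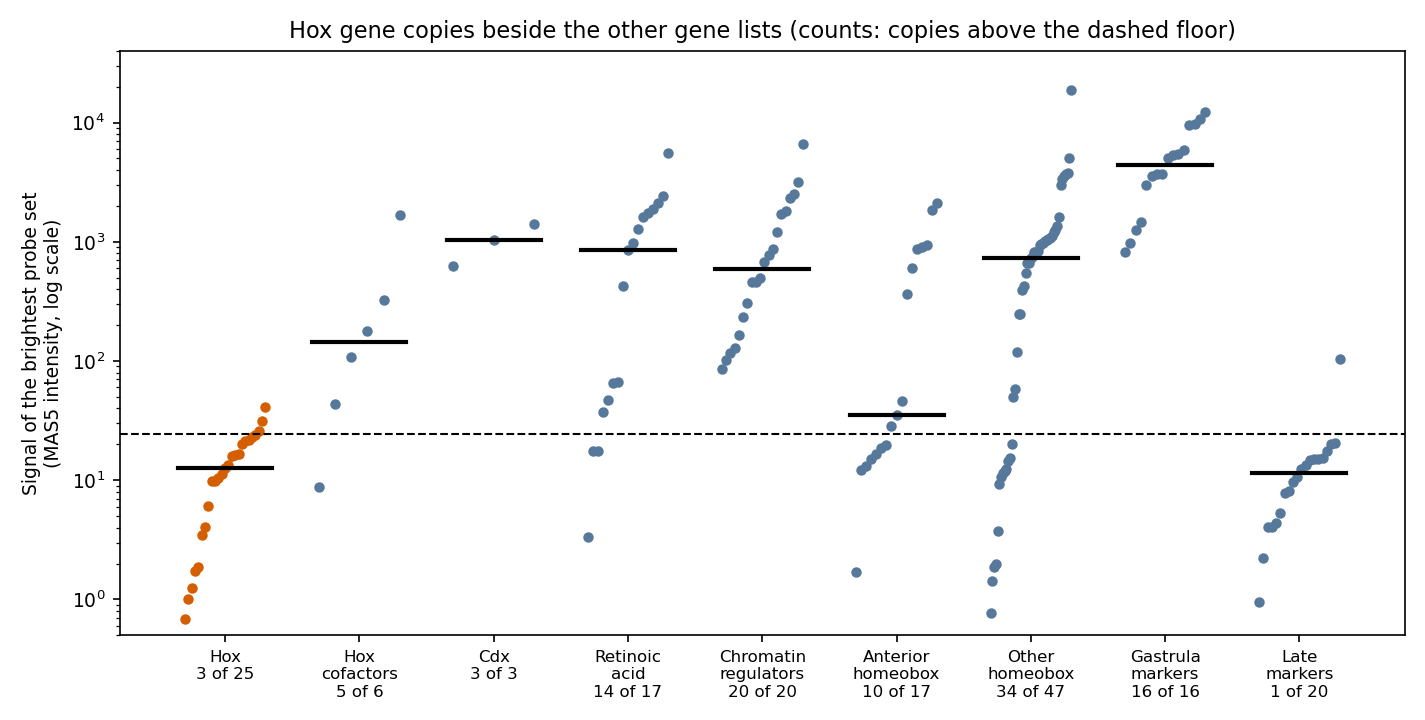
Signal of the brightest probe set of each gene copy (MAS5 intensity, logarithmic axis) for the Hox copies at the left and the other gene lists beside them, with black bars for medians and a dashed line at the highest Tag control (24.4). The Hox copies (3 of 25 above the line) and the late markers (1 of 20) lie mostly below the line. The Cdx genes (3 of 3), the chromatin regulators (20 of 20) and the gastrula markers (16 of 16) lie above it. The other lists have copies on both sides: cofactors 5 of 6 above, retinoic acid genes 14 of 17, anterior homeobox genes 10 of 17 and other homeobox genes 34 of 47. Of all named copies 80.4% exceeded the line.

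The genes around the clusters were read in the same way. For each of the 8 clusters (HoxA to HoxD on each subgenome), the 10 protein-coding RefSeq genes on either side were taken, a choice made after the Hox values were seen. Of these 160 flanking genes 70 have a probe set, and 59 of the 70 exceeded the floor (84.3%, against 80.4% of all named copies). By cluster the counts were 14 of 16 around HoxA, 13 of 14 around HoxB, 20 of 22 around HoxC and 12 of 18 around HoxD. Within the clusters 12% of Hox copies exceeded the floor, whereas the share around them was near that of the array.

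The nearest measured gene on each side of each cluster was above the floor in 14 of 16 cases, a share near the 80.4% of all named copies. Next to HoxA on the L subgenome lies evx1.L, a homeobox gene of the posterior mesoderm that borders this cluster, at 65.3. On the other side skap2.L, at position 2 from the cluster, had a signal of 29.6. On the S subgenome hibadh.S, a gene of valine breakdown at position 2, had a signal of 1479, and skap2.S at 15.0 was below the floor. For HoxB, no measured gene lay directly beside the cluster. On the L subgenome ywhab.L, at position 8 from the cluster, and cdk5rap3.L, at position 4, had signals of 509 and 28.0. On the S subgenome ube2z.S, at position 4, and snx11.S, at position 2, had signals of 184 and 163. The HoxB neighbours include a 14-3-3 protein gene (ywhab), a ubiquitin-conjugating enzyme gene (ube2z) and a sorting nexin gene (snx11).

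For HoxC, the nearest genes were smug1.L, which encodes a DNA repair glycosylase, at 79.8 and calcoco1.L at 81.2, and on the S subgenome the heterochromatin protein gene cbx5.S at 412 and calcoco1.S at 159. For HoxD, the mitochondrial import gene mtx2.L had a signal of 424. At position 2 on the other side, lnpk.L, which encodes a protein of the endoplasmic reticulum, had 815. On the S subgenome no measured gene lay directly beside HoxD. There atp5mc3.S, a subunit gene of the ATP synthase at position 2, had a signal of 16777. The oxidative stress regulator gene nfe2l2.S, at position 3, had 21.1 and was below the floor. Within the HoxB cluster of the L subgenome, RefSeq also places the gene LOC494794, at a signal of 54.2. The list gives it no other name, and it was not tested whether it is a Hox gene. The rule goes by symbol and leaves it out of every Hox count here, and its signal lies above 2 times the floor (48.8), which 0 of the 25 Hox copies with a symbol reached.

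**Figure D5:**
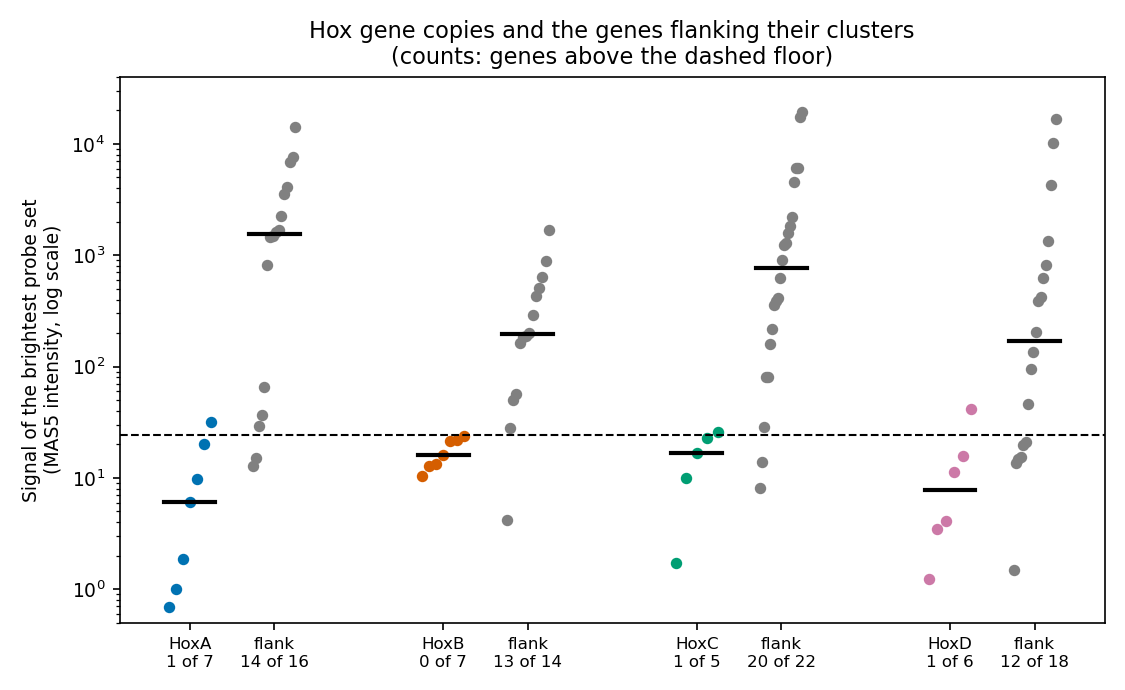
Signal of the brightest probe set (MAS5 intensity, logarithmic axis) of the Hox copies of each cluster, at the left of each pair, and of the genes flanking the cluster on either subgenome, at the right, with black bars for medians and a dashed line at the highest Tag control (24.4). In all 4 clusters most Hox copies lie below the line and most flanking genes above it.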

How the data were processed

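The authors deposited 1 table of intensity values on a linear scale, and the submitters' processing notes name MAS5 for it. Not given in the sources used here are its version, its scaling target and any detection call or filter. Gene names came from the platform annotation, and gene order, for neighbours only, from the RefSeq list of assembly Xenopus_laevis_v10.1. For each ordered pair of columns it was checked whether a single factor relates them in all probe sets within the rounding error of 0.005. This check was tested on simulated data: log2 noise with an SD of 0.15 put 32427 of 32635 probe sets outside, and proportional columns put 0 outside. Values are the mean of the 6 columns, and a gene copy takes its brightest probe set. No test across samples was run, and there are no p-values. With 1 profile, the number of arrays limits the precision. All 25 Hox copies that the rule found are named, and paralogue group 1 is not reported here. Of the other lists, the Cdx, evx and cofactor copies and the highest signals of a list, at most 3 above the floor, are named. The retinoic acid and homeobox genes below the floor, further homeobox genes above it, the flanking genes and LOC494794 were named after their values were seen. The members and lists were chosen with earlier results of these data known. No sequences are shown, since none were in the sources used here. Other floors, other summaries of probe sets and other choices of columns were tried. Python 3.11.15, numpy 2.4.6, pandas 2.3.3 and matplotlib 3.10.9 were used.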

Additional observations from a re-analysis of the deposited data

How the results depend on the processing

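The count of Hox copies above the floor (3 of 25) depended on where the floor was set. It was 0 at 2 times and 0 at 4 times the highest Tag control and 0 at the 40th percentile of probe sets (54.8). Of all named copies 74.1%, 67.8% and 73.1% passed these floors. The Hox probe sets gave 0 of 38 each time, against 61.6%, 51.9% and 60% of all probe sets that are not controls. At the second highest Tag control 4 Hox copies passed, with hoxb4.S added, against 80.8% of all named copies. At the median Tag control, chosen after seeing the data, 20 Hox copies (80%) and 31 Hox probe sets (81.6%) passed. At this floor 95.6% of all named copies and 93.2% of all probe sets that are not controls passed. Of the 2 genes with L and S copies measured, 1 had both above it. Taking the median probe set of each copy, or asking every probe set to pass, left 2 copies, without hoxc5.L. The count was 3 without probe sets marked as shared, with symbols updated through the gene ID, and with probe sets of several symbols added. Leaving out replicate 1, 2 or 3 left 3 to 3 copies, as proportional columns must. Over the 7 lists of cofactors, regulators and homeobox genes, 87 of 111 copies passed the floor (78.4%, against 80.4% of all named copies). At 4 times the floor 75 did (67.6%, against 67.8%). Both shares are near those of the array. The lists of stage markers are not among these 7. The measured copies of gsc, mix1 and ventx2.1 stand both in the gastrula markers and in the larger homeobox list. They are therefore counted among the 111. No paired analysis was possible because the columns hold 1 profile and the results come from no test. Signal over background is 1 limit of these values: the signals of the 25 Hox copies with a symbol lie at or below 1.70 times the highest Tag control.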
